A study of Mus musculus with 4 samples.

Results

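The collagen genes of mouse synovium, the tissue that lines the joint, were compared between arthritic and nonarthritic pools. The members are all genes whose symbol has the form Col, a number, a and a number. They comprise 44 of the 22180 genes measured, each read by its brightest probe set among those with 1 gene symbol. Values are log2 signals of microarray probe sets, normalized between arrays. Arthritic synovium came from 2 pools of 10 mice, taken on day 10, which the series design describes as peak inflammation. Nonarthritic synovium came from 2 pools of 3 mice, labelled day 0. All mice were male C57BL/6J animals of 12 weeks. The arthritic mice were injected into the abdomen on days 0, 2 and 7 with 150 µl of arthritis-inducing serum, and the nonarthritic mice were given saline on the same schedule. The labels name K/BxN as the strain that gave the serum, and carry this entry for the nonarthritic pools too. The groups therefore also differ in labelled day and in the number of mice per pool, and these differences cannot be told apart from arthritis.

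Collagens are the structural proteins of connective tissue. Each molecule is a triple helix of 3 chains, which are products of 1, 2 or 3 genes. Fibrillar collagens form the ropes of tendon, bone, skin and cartilage. Other classes coat these fibrils, build the sheets of basement membranes, form beaded microfibrils or hexagonal networks, or span the cell membrane. In the joint, types I and III are the collagens of the capsule and synovium, types II, IX and XI those of cartilage, and type X is known from hypertrophic cartilage, the zone next to mineralised tissue.

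Markers of cell types were compared between the groups, with a gene said to be called, to rise or to fall where its adjusted p was under 0.05. Such counts do not check the tissue label itself. Skeletal muscle markers fell in 8 of 8 cases and fat cell markers in 5 of 5, neutrophil markers rose in 5 of 5 and cycling cell markers in 4 of 4, and markers of the synovial lining fell in 4 of 5. Macrophage markers rose in 2 and fell in 1 of 6, Schwann cell markers fell in 3 of 4, and 0 of 5 keratinocyte markers were called. The muscle markers had a mean log2 signal of 11.40 and 11.82 in the nonarthritic pools, against 8.99 and 8.46 in the arthritic pools. In whole tissue, fewer cells of a type and less RNA per cell cannot be told apart. Over all genes tested, 8.72% were higher and 6.62% lower in arthritic pools (limma, Benjamini-Hochberg adjusted p under 0.05), and the pools of the groups did not overlap in 56.4%. These are 1933 higher and 1469 lower genes, which became 2314 and 1134 with arrays centred on the median of all probe sets. The median log2 fold change of all genes was 0.005. The number of arrays limits the precision of every value.

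Of the 44 collagen genes, 25 rose and 2 fell in arthritic synovium, which is 56.8% and 4.55%, while 17 did not pass the test. At least 2-fold, 13 rose and 2 fell, against 3.48% and 3.12% of all genes. The median log2 fold change of the collagen genes was 0.66. All 11 fibrillar chains and both multiplexins rose. The 3 short-chain network collagens split, with 2 rising and Col10a1 showing the largest fold change of any collagen gene, a fall of 15.2-fold. Collagen VI had 4 rising chains and 1 falling chain of 6. In the other classes, 3 of 9 FACIT collagens, 2 of 6 basement membrane chains, 1 of 4 transmembrane collagens and 0 of 3 remaining collagens rose. The pools of the groups did not overlap for 34 of the 44 genes, or 77.3%, against 56.4% of all genes. These 34 include every called collagen gene.

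**Figure D1:**
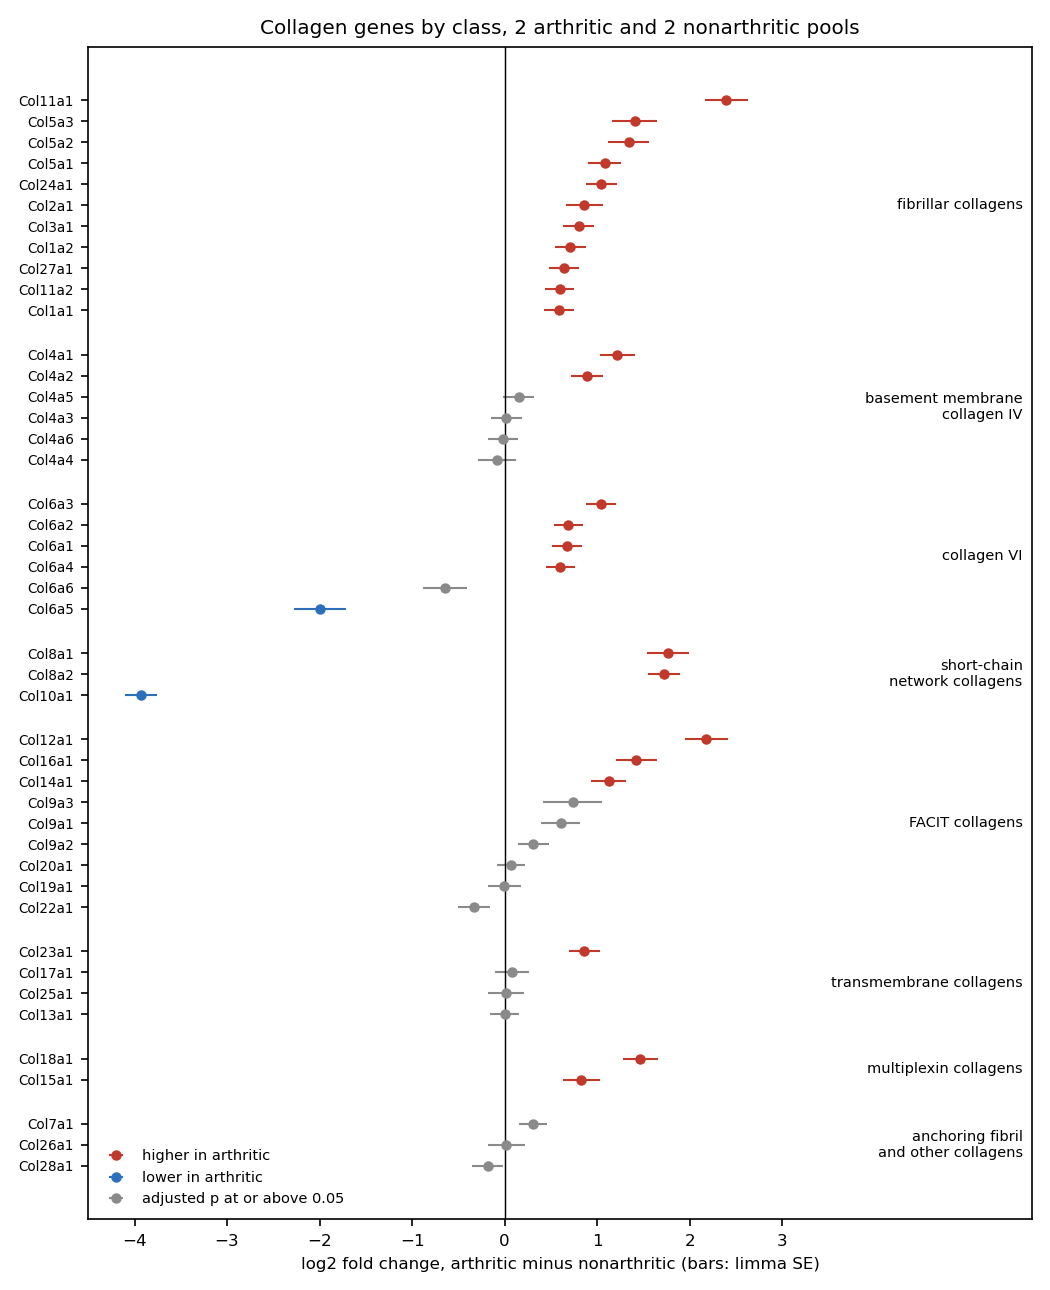
Log2 fold change of each of the 44 collagen genes, arthritic minus nonarthritic, ordered within its class. Points are limma estimates from 2 pools per group and bars are their SE. All 11 fibrillar chains lie right of 0, from 0.59 for Col1a1 to 2.40 for Col11a1, and Col10a1 at -3.93 lies farthest left.

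The short-chain network collagens moved in opposite directions. Type X collagen, from Col10a1, is a product of hypertrophic chondrocytes. Its log2 signal was 7.01 and 7.07 in arthritic pools 1 and 2, against 11.11 and 10.83 in nonarthritic pools 1 and 2. The groups were far apart and the arthritic pools nearly equal, with a log2 fold change of -3.93 ± 0.17 (SE; limma adjusted p = 7.79e-05). The arthritic signal lay near 6.98, the 95th percentile of the mean signals of 1105 olfactory receptor genes, which are not expected in this tissue. A signal this close to background limits how well the size of the fall is measured. Its relatives Col8a1 and Col8a2 encode the chains of type VIII collagen, which is known from vessel walls and from a membrane of the cornea. Col8a1 read 11.11 and 11.45 in the arthritic pools, against 9.80 and 9.22 in the nonarthritic pools (log2 fold change 1.77 ± 0.23 SE, limma adjusted p = 0.002). Col8a2 read 8.61 and 8.72 in the arthritic pools, against 7.09 and 6.80 in the nonarthritic pools (1.72 ± 0.17 SE, limma adjusted p = 0.000674). The nonarthritic signal of Col8a2, 6.95 on average, was not above 6.98, so the size of its rise is limited by background too. The log2 ratio of Col8a1 to Col8a2 differed by 0.05 between the groups, which under that limit does not show equal rises.

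The stretch of DNA before the annotated start differs in base composition between these genes. Shown are the 250 bases before the RefSeq start (build GRCm38.p6) of the 3 short-chain network genes and of Col11a1, the fibrillar chain with the largest rise. Capitals mark matches on either strand to TATAAA, the core of the TATA box, to CCAAT, that of the CCAAT box, or to GGGCGG, that of the GC box. Overlapping matches run together. The windows lie at chr10:34389731-34389980 on the plus strand for Col10a1, chr16:57754738-57754987 on the minus strand for Col8a1, chr4:126286544-126286793 on the plus strand for Col8a2 and chr3:114030290-114030539 on the plus strand for Col11a1.
Col10a1: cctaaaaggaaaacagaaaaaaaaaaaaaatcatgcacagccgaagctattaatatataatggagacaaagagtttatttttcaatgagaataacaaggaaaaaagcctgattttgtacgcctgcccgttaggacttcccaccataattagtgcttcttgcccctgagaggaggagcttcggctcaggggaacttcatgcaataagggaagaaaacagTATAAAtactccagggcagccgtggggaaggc
Col8a1: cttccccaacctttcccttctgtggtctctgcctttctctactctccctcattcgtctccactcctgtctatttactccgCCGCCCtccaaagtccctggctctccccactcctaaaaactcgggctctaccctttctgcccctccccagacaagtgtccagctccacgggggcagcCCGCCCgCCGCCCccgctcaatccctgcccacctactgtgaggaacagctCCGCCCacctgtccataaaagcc
Col8a2: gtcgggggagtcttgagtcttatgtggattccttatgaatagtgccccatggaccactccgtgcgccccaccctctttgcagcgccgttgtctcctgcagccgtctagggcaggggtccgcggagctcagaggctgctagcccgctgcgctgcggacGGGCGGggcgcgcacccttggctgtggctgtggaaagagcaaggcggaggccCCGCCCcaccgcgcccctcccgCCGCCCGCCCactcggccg
Col11a1: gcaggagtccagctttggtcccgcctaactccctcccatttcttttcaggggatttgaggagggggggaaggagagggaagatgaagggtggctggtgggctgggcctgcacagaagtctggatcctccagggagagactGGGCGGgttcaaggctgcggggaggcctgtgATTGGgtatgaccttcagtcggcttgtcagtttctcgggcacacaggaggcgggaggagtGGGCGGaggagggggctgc
The Col10a1 window is 41.6% G and C and holds 1 TATAAA, whose first base lies 32 bases before the start, and 0 matches to the other motifs. The windows of Col8a1, Col8a2 and Col11a1 are 60.8%, 70.0% and 62.4% G and C, and hold 4, 4 and 2 matches to GGGCGG and 0 to TATAAA. The RefSeq promoter table had entries for 35 of the 44 collagen genes. Among these, 60.0% held GGGCGG, 37.1% CCAAT and 14.3% TATAAA, beside 45.8%, 39.5% and 13.7% of 17492 protein-coding genes. GGGCGG was found for 14 of 20 genes that rose, 6 of 13 not called and 1 of 2 that fell. CCAAT was found for 8 of 20 that rose, 5 of 13 not called and 0 of 2 that fell. TATAAA was found for 2 of 20 that rose, 2 of 13 not called and 1 of 2 that fell. A link between motif and direction was not tested. A match describes the letters and is no evidence of a working site.

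Among fibrillar collagens, fold changes ran from 1.51 for Col1a1 to 5.26 for Col11a1. Type I collagen, the bulk collagen of bone and capsule, is made of Col1a1 and Col1a2. Col1a1 read 13.86 and 13.85 in the arthritic pools, against 13.37 and 13.16 in the nonarthritic pools, a rise of 1.51-fold (log2 fold change 0.59 ± 0.16 SE, limma adjusted p = 0.0445). Col1a2 read 13.57 and 13.46 in the arthritic pools, against 12.92 and 12.69 in the nonarthritic pools (0.71 ± 0.17 SE, limma adjusted p = 0.0247). Another probe set of Col1a2, less bright, gave -0.04, and with the mean of the probe sets Col1a2 was not called (log2 fold change 0.34, limma adjusted p = 0.21). Col3a1, the type III chain found with type I in soft tissue, read 13.19 and 13.25 in the arthritic pools, against 12.55 and 12.29 in the nonarthritic pools (0.80 ± 0.17 SE, limma adjusted p = 0.0159). The pools of the groups were separate for all 3 genes, as for every called collagen gene, and the arthritic pools lay within 0.11 of each other.

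Type V collagen co-assembles with type I and is known to limit fibril width. Col5a1 read 11.85 and 12.12 in the arthritic pools, against 11.04 and 10.77 in the nonarthritic pools, and its log2 fold change was 1.08 ± 0.18 (SE; limma adjusted p = 0.00624). Col5a2 read 11.57 and 11.77 in the arthritic pools, against 10.64 and 10.02 in the nonarthritic pools (1.34 ± 0.22 SE). For Col5a3, a less widespread chain, the values were 9.64 and 10.11 in the arthritic pools and 8.77 and 8.17 in the nonarthritic pools (1.41 ± 0.24 SE). All 3 type V chains were more than 2-fold higher by their brightest probe sets. Nonarthritic pool 1 read above nonarthritic pool 2 for each of them, by 0.27 for Col5a1, 0.62 for Col5a2 and 0.60 for Col5a3. A dimmer probe set of Col5a1 gave 0.19, and with the mean of both probe sets the rise of Col5a1 was 0.63 (limma adjusted p = 0.029), under 2-fold.

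Of the cartilage fibril chains, Col11a1 had the largest rise of all collagen genes. It encodes a type XI chain that forms the core of thin fibrils together with type II. Col11a1 read 11.10 and 10.84 in the arthritic pools, against 8.90 and 8.25 in the nonarthritic pools, a rise of 5.26-fold (log2 fold change 2.40 ± 0.23 SE, limma adjusted p = 0.000592). Its partner Col11a2 read 8.05 and 7.97 in the arthritic pools, against 7.49 and 7.34 in the nonarthritic pools (0.60 ± 0.16 SE, limma adjusted p = 0.0407). Col2a1, the type II chain that is also used as a type XI chain, read 9.93 and 9.41 in the arthritic pools, against 8.84 and 8.78 in the nonarthritic pools (0.86 ± 0.20 SE, limma adjusted p = 0.0251). All 3 rose, but by unequal amounts: the log2 ratio of Col11a1 to Col11a2 was 3.05 and 2.87 in the arthritic pools and 1.41 and 0.91 in the nonarthritic pools. The pools of arthritic synovium differed by 0.52 for Col2a1, more than for Col11a1 or Col11a2. The other fibrillar chains are those of Col24a1 and of Col27a1, a gene known from cartilage. Col24a1 read 8.18 and 8.09 in the arthritic pools, against 7.22 and 6.96 in the nonarthritic pools (1.05 ± 0.17 SE), and Col27a1 rose by 0.65 ± 0.16 SE (limma adjusted p = 0.0321). Col27a1 was not called after a further quantile normalization (limma adjusted p = 0.0739).

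Markers of neighbouring skeletal cells were read beside these values. Of 10 chondrocyte markers, 3 rose and 2 fell: aggrecan, Acan (log2 fold change 2.02), matrilin Matn3 (2.31) and the link protein Hapln1 (1.21) rose, and Chad (-3.62) and Cytl1 (-3.51) fell. Summed on the linear scale, the 10 markers gave 16745 and 12851 in the arthritic pools, against 26941 and 23931 in the nonarthritic pools. This sum is weighted to bright genes. Chad read 13.51 and 13.36 in the nonarthritic pools, against 10.10 and 9.54 in the arthritic pools. Cytl1 read 12.50 and 12.42, against 9.13 and 8.77. Of the 10 markers, 6 had a positive and 4 a negative log2 fold change, so the lower sum does not show a fall of the set. Of 8 osteoblast and osteocyte markers 0 rose and 3 fell, with sums of 4187 and 1886 in the arthritic pools, against 6278 and 5657 in the nonarthritic pools. Of 6 tendon markers 3 rose and 0 fell, with sums of 25279 and 21777 in the arthritic pools, against 17435 and 15046 in the nonarthritic pools. Of 8 fibroblast markers 4 rose and 0 fell, with sums of 40357 and 38948 in the arthritic pools, against 31794 and 28873 in the nonarthritic pools. The cartilage collagens Col10a1, Col2a1, Col11a1 and Col11a2 went in both directions, as the chondrocyte markers did. Matn1 and Dmp1 averaged below 6.98 in both groups, Phex and Bglap did so in the arthritic pools, and Matn3 did so in the nonarthritic pools. Matn3 read 9.33 and 8.11 in the arthritic pools, and its log2 fold change was 1.70 without arthritic pool 1 and 2.92 without arthritic pool 2. The part of cell content in the collagen results was not tested.

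**Figure D2:**
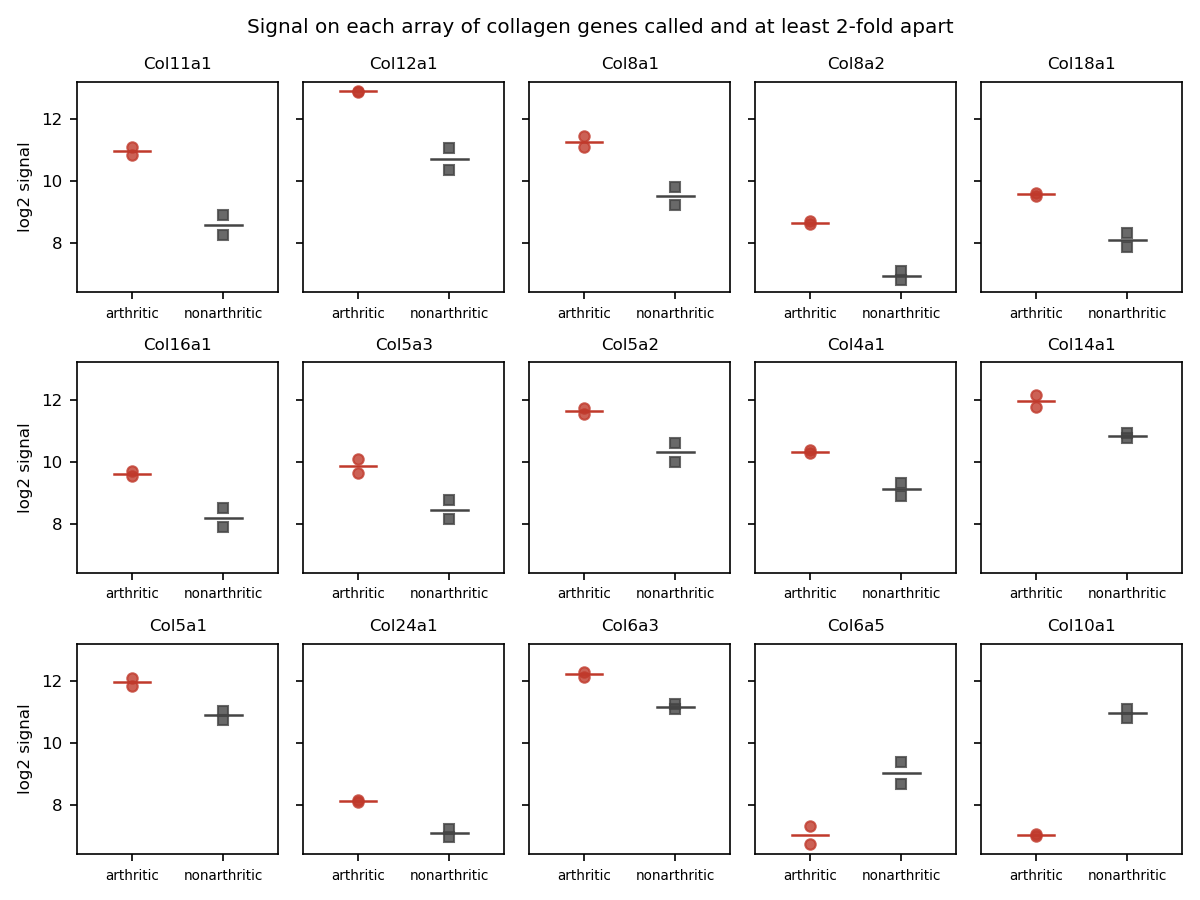
Log2 signal on each array for the 15 collagen genes that were called and at least 2-fold apart, with arthritic pools as red circles, nonarthritic pools as grey squares and lines at the group means. The groups do not overlap in any of the 15 panels, which holds for every called collagen gene and adds nothing to the calls. Col12a1 has the closest arthritic pools, at 12.90 and 12.92, and Col6a5 has the widest spread within both groups.

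FACIT collagens have interrupted helices and sit on the surface of fibrils. The 3 that rose were Col12a1, Col14a1 and Col16a1, and each rose by more than 2-fold. Col12a1, found on type I fibrils in tendon and ligament, read 12.90 and 12.92 in the arthritic pools, against 11.08 and 10.38 in the nonarthritic pools. It rose 4.53-fold (log2 fold change 2.18 ± 0.23 SE, limma adjusted p = 0.000885). Col14a1, a close relative of Col12a1, read 12.19 and 11.79 in the arthritic pools, against 10.94 and 10.79 in the nonarthritic pools (1.13 ± 0.19 SE, limma adjusted p = 0.00608). Col16a1 read 9.55 and 9.72 in the arthritic pools, against 8.52 and 7.90 in the nonarthritic pools (1.43 ± 0.22 SE, limma adjusted p = 0.00467).

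The type IX chains, which decorate cartilage fibrils, did not pass the test. Col9a1 read 7.93 and 7.56 in the arthritic pools, against 6.92 and 7.36 in the nonarthritic pools (log2 fold change 0.61 ± 0.21 SE, limma adjusted p = 0.0959). Col9a2 had a log2 fold change of 0.31 ± 0.16 SE. Col9a3 read 8.48 and 7.37 in the arthritic pools, against 7.29 and 7.09 in the nonarthritic pools (0.74 ± 0.32 SE, limma adjusted p = 0.175), so that its arthritic pools stood more than 2-fold apart. For all 3 chains both arthritic pools read above both nonarthritic pools, though barely for Col9a3 (7.37 against 7.29). The groups did not overlap in 56.4% of all genes, so this is no evidence of a shared rise. Col22a1, known from the junction of muscle and tendon, read 8.63 and 8.63 in the arthritic pools, against 9.13 and 8.80 in the nonarthritic pools (-0.34 ± 0.17 SE, limma adjusted p = 0.249). Col19a1 and Col20a1 had log2 fold changes of -0.01 and 0.07, and their groups overlapped or met. A miss of the threshold with 2 pools per group does not show that these genes were equal.

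Collagen VI forms beaded microfibrils around cells and carried changes in both directions. The standard molecule is made of the chains of Col6a1, Col6a2 and Col6a3, and all 3 rose. Col6a1 read 12.97 and 12.87 in the arthritic pools, against 12.34 and 12.15 in the nonarthritic pools (log2 fold change 0.68 ± 0.16 SE, limma adjusted p = 0.0275). Col6a2 read 12.41 and 12.32 in the arthritic pools, against 11.74 and 11.61 in the nonarthritic pools (0.69 ± 0.16 SE). Their log2 ratio differed by -0.02 between the groups. Col6a3 read 12.15 and 12.31 in the arthritic pools, against 11.28 and 11.10 in the nonarthritic pools (1.04 ± 0.16 SE, limma adjusted p = 0.00498). Col6a4, Col6a5 and Col6a6 encode chains that resemble that of Col6a3, and they lie side by side on chromosome 9. Col6a5 fell 3.99-fold: it read 6.73 and 7.34 in the arthritic pools, against 8.67 and 9.39 in the nonarthritic pools (-2.00 ± 0.28 SE, limma adjusted p = 0.00303). Col6a6 read 8.05 and 7.30 in the arthritic pools, against 8.30 and 8.34 in the nonarthritic pools (-0.65 ± 0.24 SE, limma adjusted p = 0.119). Col6a4 read 6.73 and 6.82 in the arthritic pools, against 6.11 and 6.24 in the nonarthritic pools, and passed the test narrowly (0.60 ± 0.16 SE, limma adjusted p = 0.0386). All of its values were below 6.98, the upper level of the olfactory receptor genes, so it was not shown to be above background, and it was not called with arrays centred on gene medians (limma adjusted p = 0.0504). The arthritic signal of Col6a5, 7.04 on average, was close to that level too. Differences in fold change among these 3 neighbouring genes were not tested.

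Collagen IV builds the sheet of basement membranes, in vessels, nerves, fat and muscle among other sites. Its widespread chains, from Col4a1 and Col4a2, rose. Col4a1 read 10.39 and 10.29 in the arthritic pools, against 9.33 and 8.91 in the nonarthritic pools (log2 fold change 1.22 ± 0.19 SE, limma adjusted p = 0.00438). Col4a2 read 10.22 and 10.17 in the arthritic pools, against 9.46 and 9.14 in the nonarthritic pools (0.90 ± 0.17 SE, limma adjusted p = 0.0119). The 2 genes lie head to head on chromosome 8. Their RefSeq promoter windows of 300 bases, on opposite strands, share 78 bases. The chains restricted to special membranes did not pass the test. Col4a5 had a log2 fold change of 0.16, Col4a3 of 0.02, Col4a6 of -0.02 and Col4a4 of -0.08. Among these 4 the groups overlapped, and the mean signals of Col4a3 and Col4a6 were not above 6.98. Of 6 endothelial markers 2 rose and 0 fell, with summed linear signals of 13471 and 11163 in the arthritic pools, against 10863 and 10651 in the nonarthritic pools, and of 5 pericyte and smooth muscle markers 0 rose and 1 fell. The endothelial rises are 33.3%, beside 8.72% of all genes, and the 1 pericyte and smooth muscle fall stands beside 6.62% of all genes. Whether these shares differ from those of all genes was not tested.

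The multiplexins, which lie in and next to basement membranes, both rose. Col18a1, whose end fragment is known as endostatin, read 9.54 and 9.62 in the arthritic pools, against 8.34 and 7.89 in the nonarthritic pools (log2 fold change 1.47 ± 0.19 SE, limma adjusted p = 0.00214). Col15a1 read 9.67 and 9.57 in the arthritic pools, against 9.04 and 8.54 in the nonarthritic pools (0.83 ± 0.20 SE, limma adjusted p = 0.0275). The nonarthritic pools differed by 0.45 for Col18a1 and 0.50 for Col15a1, and both genes read lower in nonarthritic pool 2.

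Of the transmembrane collagens, Col23a1 rose: it read 9.17 and 9.12 in the arthritic pools, against 8.42 and 8.15 in the nonarthritic pools (log2 fold change 0.86 ± 0.17 SE, limma adjusted p = 0.0123). Col17a1, the hemidesmosome collagen of skin, Col13a1, a collagen of the nerve-muscle junction, and Col25a1 had log2 fold changes of 0.08, 0.00 and 0.02. Col7a1, which forms the anchoring fibrils of skin, read 7.50 and 7.54 in the arthritic pools, against 7.23 and 7.20 in the nonarthritic pools (0.31 ± 0.15 SE, limma adjusted p = 0.235). Col26a1 and Col28a1 had log2 fold changes of 0.02 and -0.19. The 17 collagen genes that did not pass the test had a median log2 fold change of 0.02 and a range of -0.65 to 0.74. For 7 of them, or 41.2%, the groups did not overlap. The 56.4% of all genes is not a like measure, since it includes called genes. The groups did not overlap for any of the 1933 genes that rose, so a lower share among uncalled genes is built in.

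Chains were also set against each other within each array for 13 pairs, chosen with their values known. In 10 of the 13 pairs the log2 ratios of the groups did not overlap. No such share was taken over ratios of all genes, and for single genes it was 56.4%. Some pairs share a chain, so the pairs are not independent. For each of the 10, an exact 2-sided permutation test of 2 pools against 2 gave p = 0.333, the smallest value it can give. After Benjamini-Hochberg adjustment over the pairs this permutation p was 0.433. The ratio of Col12a1 to Col1a1 differed by 1.59, that of Col5a1 to Col1a1 by 0.49 and that of Col3a1 to Col1a1 by 0.21 on the log2 scale, arthritic minus nonarthritic. The ratio of Col6a5 to Col6a3 differed by -3.04, with an SD of 0.32 in the arthritic pools and 0.64 in the nonarthritic pools, and that of Col10a1 to Col2a1 differed by -4.79. The ratio of Col1a1 to Col1a2 differed by -0.12, and that of Col4a1 to Col4a2 by 0.33. Among neighbours on a chromosome, Col3a1 and Col5a2 rose together, as did Col6a1 and Col6a2 and the Col4a1 pair. The pairs Col4a3 and Col4a4, Col4a5 and Col4a6, and Col9a1 and Col19a1 had no call. Other neighbours differed: Col6a5 fell beside Col6a4, which rose but was not shown to be above background, and beside Col6a6, which was not called.

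The nonarthritic pools were unequal for the genes that rose. The array of nonarthritic pool 2 also stood apart in the olfactory receptor genes, whose median was 4.60 and 4.68 in the arthritic pools, against 4.68 and 5.15 in the nonarthritic pools, and its median over all probe sets was the highest of the 4 arrays, at 7.15. With arrays centred on probe-set medians, which removes the difference in array medians, 25 collagen genes rose and 2 fell, the same counts as without it. The part of the olfactory receptor difference in the result was not tested. Of the 25 rising collagen genes, 23 read higher in nonarthritic pool 1 than in nonarthritic pool 2, with a median gap of 0.27 on the log2 scale. The same held for 85.1% of all genes that rose and for 53.9% of all genes tested. In the arthritic pools no such side was seen, with 13 of the 25 genes higher in pool 1. The fold changes of these genes were therefore larger against nonarthritic pool 2: leaving out nonarthritic pool 1 gave 2.53 for Col12a1 and 2.72 for Col11a1, and leaving out pool 2 of that group gave 1.83 and 2.07. The number of collagen genes that rose was 1 without arthritic pool 1, 0 without arthritic pool 2, 13 when pool 1 of the nonarthritic group was left out and 3 when its pool 2 was, in fits with 1 residual degree of freedom. Col10a1 kept its call in all 4 of these fits and Col8a2 in 3. All 27 called genes kept their direction in each of them. This was fixed in advance, since the groups did not overlap for any called collagen gene, and it is no sign of stability.

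**Figure D3:**
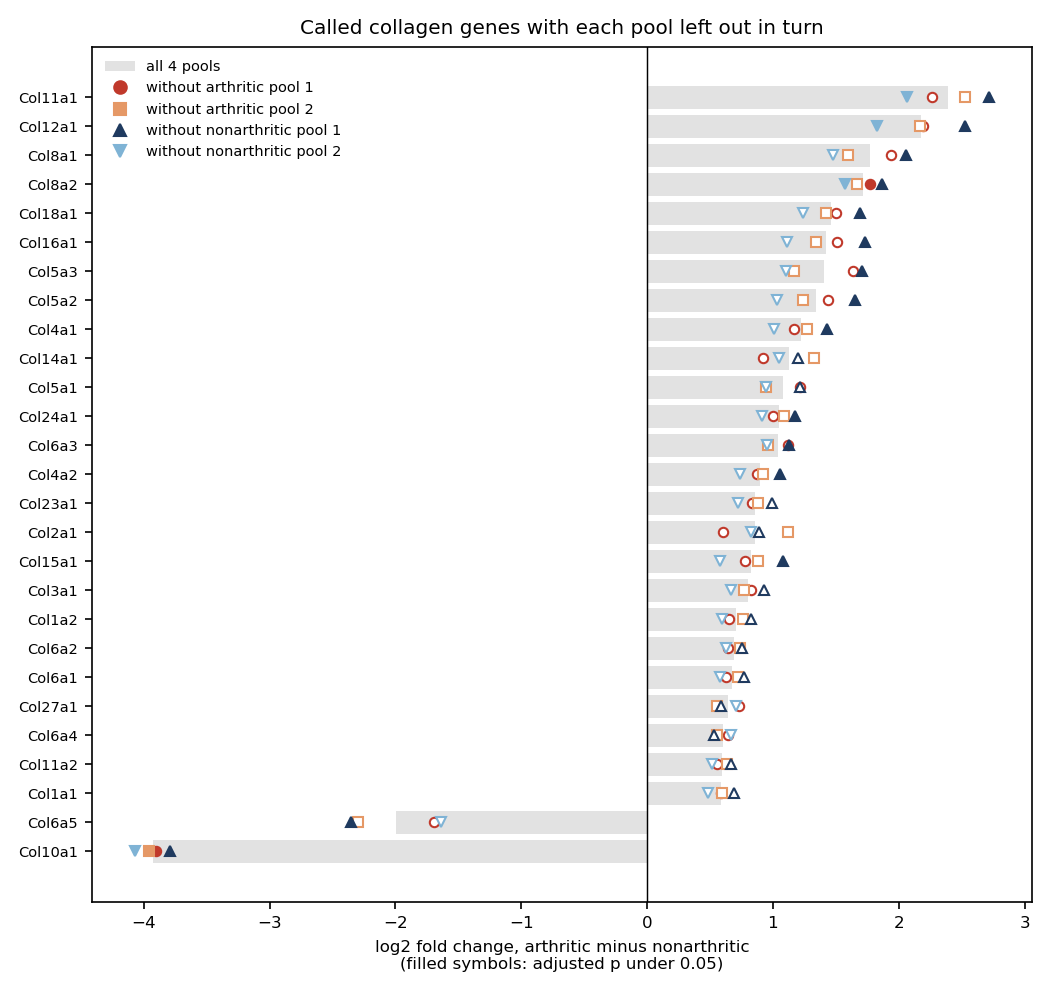
Log2 fold change, arthritic minus nonarthritic, of the 27 called collagen genes with all 4 pools (grey bars) and with each pool left out in turn (symbols, filled where the adjusted p was under 0.05). Symbols stay on the side of their bar for all 27 genes, which could not be otherwise, since the groups did not overlap for any of them. Filled symbols occur in all 4 fits for Col10a1, and for most genes that have any, without nonarthritic pool 1.

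Genes that make, process, bind and break down collagen were read beside the chains. Of 21 measured genes of collagen synthesis and folding, 10 rose and 2 fell, with a median log2 fold change of 0.61. These are 47.6% and 9.52%, beside 8.72% and 6.62% of all genes. The proline hydroxylase subunit P4ha3 rose by 2.43 ± 0.18, the hydroxylase P3h1 by 1.73 ± 0.20, its relative P3h4 by 1.47 ± 0.20, the sugar transferase Colgalt1 by 1.32 ± 0.21 and P3h3 by 1.06 ± 0.19 (log2, SE). P4ha3 read 11.72 and 11.64 in the arthritic pools, against 9.45 and 9.05 in the nonarthritic pools. The collagen chaperone Serpinh1 rose by 1.04 ± 0.16. The genes that fell were Colgalt2 (-1.99 ± 0.24) and the hydroxylase P3h2 (-0.81 ± 0.16), relatives of Colgalt1 and P3h1, which rose.

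Of 25 genes of propeptide removal, crosslinking and fibril assembly, 8 rose and 3 fell, with a median log2 fold change of 0.15. These are 32.0% and 12.0%, beside 8.72% and 6.62% of all genes. The propeptide-cutting Adamts3 (1.57 ± 0.21) and Tll1 (1.02 ± 0.21), the fibril-binding keratocan, Kera (1.35 ± 0.25), the oxidase Loxl3 (1.05 ± 0.15) and periostin, Postn (1.01 ± 0.16), led the rises on the log2 scale. Pcolce2, which enhances removal of the C-propeptide, fell by 3.04 ± 0.15 on the log2 scale, and it read 9.26 and 9.32 in the arthritic pools, against 12.37 and 12.28 in the nonarthritic pools. Tenascin X, Tnxb (-2.38 ± 0.20), and osteomodulin, Omd (-2.28 ± 0.32), fell as well. The oxidase Lox had 0.49 ± 0.16 and did not pass the test (limma adjusted p = 0.0722).

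Of 14 collagen receptor and uptake genes, 2 rose and 1 fell, with a median log2 fold change of -0.12. These are 14.3% and 7.14%, not far from the 8.72% and 6.62% of all genes. The collagen-binding integrin chain Itga11 (1.28 ± 0.20) and the uptake receptor Mrc2 (0.98 ± 0.17) rose, and Lair1, an inhibitory collagen receptor of leukocytes, fell (-1.21 ± 0.17). Of 12 collagen-degrading enzymes 5 rose, or 41.7%, and 0 fell. Mmp9 (3.84 ± 0.32), Mmp13 (3.78 ± 0.74), Mmp8 (3.29 ± 0.17), the membrane-bound Mmp14 (1.46 ± 0.21) and the cathepsin Ctsk (0.67 ± 0.18) rose, of which Mmp8 is also a neutrophil marker. Mmp13 read 13.13 and 12.74 in the arthritic pools, against 10.59 and 7.72 in the nonarthritic pools, and leaving out nonarthritic pool 1 gave a log2 fold change of 5.21 and leaving out the other nonarthritic pool gave 2.35. Mmp8 read 6.45 in both nonarthritic pools, which is below 6.98, so that the size of its rise is limited by background.

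Of 23 regulators of collagen genes, 4 rose and 7 fell, with a median log2 fold change of -0.10. These are 17.4% and 30.4%, beside 8.72% and 6.62% of all genes. The tendon factor Scx (1.52 ± 0.24), Runx3 (0.82 ± 0.17), the cartilage factor Sox9 (0.80 ± 0.18) and the hormone receptor Pth1r (0.69 ± 0.18) rose. Bmp4 (-2.33 ± 0.37), Bmp6 (-1.82 ± 0.20), Mef2c (-1.60 ± 0.29), Sox6 (-1.29 ± 0.22) and Bmp2 (-1.16 ± 0.25) fell most. The log2 fold change of Bmp4 was -3.01 without arthritic pool 1 and -1.65 without arthritic pool 2. Mef2c, known as an activator of Col10a1 in hypertrophic chondrocytes and also as a muscle factor, read 9.22 and 8.25 in the arthritic pools, against 10.26 and 10.42 in the nonarthritic pools. Skeletal muscle markers, all of which fell, had summed linear signals of 4953 and 3411 in the arthritic pools, against 25670 and 34772 in the nonarthritic pools, and the part of muscle content in the value of Mef2c was not tested. Tgfb1, Tgfb2 and Tgfb3, ligands known to induce fibrillar collagens, had log2 fold changes of 0.20, -0.23 and 0.47 and did not pass the test (limma adjusted p = 0.445, 0.462 and 0.0845).

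**Figure D4:**
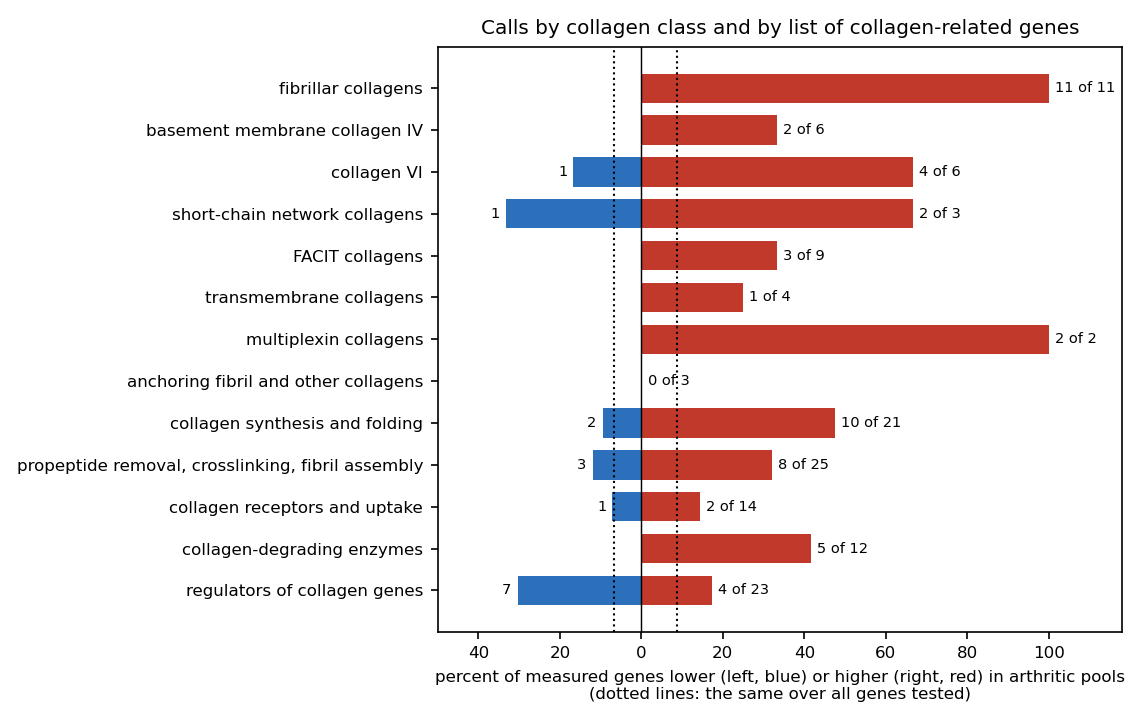
Percent of measured genes in each collagen class and in each list of collagen-related genes that were higher (right, red, with the count) or lower (left, blue, with the count) in arthritic pools. Dotted lines mark 8.72% higher and 6.62% lower over all genes tested. Fibrillar collagens and multiplexins reach 100%, and the list of regulators has more lower than higher genes.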

How the data were processed

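Total RNA of 4 pools was measured on Affymetrix MoGene 2.0 ST arrays, 1 array per pool, from 500 ng of RNA per the labels' protocols. The deposited values are log2 signals, 1 per probe set, to 2 decimals; per the submitters' processing notes the authors used RMA, Affymetrix Expression Console and Affymetrix Power Tools, and no versions are given in the sources used here. Their range of 2.89 to 14.27 shows a log scale, and base 2 is what RMA gives. No detection calls were used. RMA equalises the arrays, so a change shared by most genes would be lost.

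Of 41345 probe sets, 23521 had 1 gene symbol in the platform table, 1814 had several and 16010 had none. The brightest probe set per gene left 22180 genes. All 44 collagen symbols matched a RefSeq gene table of GRCm38.p6; 3 genes had a second probe set. Listed genes with no such probe set, such as Plod3 and Loxl2, are not analysed here. Chains share repeated helix sequence, and cross-hybridisation between them was not tested.

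Groups were compared with limma 3.58.1 in R 4.3.3 (lmFit and eBayes, 2-sided, 2 residual and 5.98 prior degrees of freedom, no block), with Benjamini-Hochberg adjustment over all 22180 genes; rose and fell mean an adjusted p under 0.05. The script was tested on simulated data, where changes of 2-fold or less were not called with 2 pools per group. A gene not called may therefore still differ. In the real data rises under 2-fold were called, so the simulation does not give the sensitivity of the real fit. The pass mark of that test was revised after its first result. Per the series' design the pools of a group are biological replicates. The p-values reflect the spread of pools, not of single mice. The other lists were named by up to 5 called genes per direction, and further ones named were chosen after their values were seen. The members, classes and lists were chosen with earlier results of these data known. Alternatives covered scaling, normalization, a filter on dim genes, probe-set averaging, the variance prior, a replicate block and each pool left out.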

Additional observations from a re-analysis of the deposited data

How the results depend on the processing

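The number of collagen genes that rose was 24 or 25, and 2 fell, with arrays centred on gene medians, a further quantile normalization, dim genes left out, probe sets averaged, a variance prior with a trend, and arrays centred on probe-set medians, the last chosen after seeing the data. Of the 27 called genes, 19 kept their call in all of these and in the replicate block. Quantile normalization, leaving out dim genes and the trended prior each gave 5 falling genes of propeptide removal, crosslinking and assembly in place of 3, and 2 falling receptor genes in place of 1. The pool numbers were not taken as pairs, since the difference between arthritic pools correlated at 0.176 with that between nonarthritic pools, over all genes. With the pool number as a replicate block, 18 collagen genes rose and 2 fell, 1216 of all genes rose, and rises numbered 6 for fibrillar collagens, 1 for multiplexins and 2 for regulators.

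With each pool left out in turn, 47 to 637 of all genes rose and 105 to 584 fell, and 0 to 13 collagen genes rose and 1 to 2 fell. Rises ranged from 0 to 4 for fibrillar collagens, from 0 to 2 each for collagen IV, FACIT, short-chain network and multiplexin collagens, from 0 to 1 for collagen VI and were 0 for transmembrane collagens, while falls of collagen VI ranged from 0 to 1. For collagen synthesis and folding 0 to 5 rose and 0 to 1 fell, for propeptide removal, crosslinking and assembly 0 to 4 rose, for receptors 0 to 1 rose and 0 to 1 fell, for degrading enzymes 1 to 4 rose, and for regulators 0 to 1 rose and 0 to 4 fell. These fits had fewer samples.

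Direction turned 19 times, each for a gene that was not called. The log2 fold change was -0.005 for Col25a1 with centring on gene medians. It was 0.0625 for Col19a1, -0.03 for Col26a1 and 0.0125 for Col4a6 with quantile normalization. It was 0.09 for Col19a1, 0.015 for Col4a4 and 0.08 for Col4a6 with probe-set centring. With a pool left out, it ranged from -0.14 to 0.13 for Col19a1, from -0.23 to 0.26 for Col25a1, from -0.185 to 0.225 for Col26a1, from -0.11 to 0.15 for Col4a3, from -0.305 to 0.145 for Col4a4, from -0.115 to 0.085 for Col4a6 and from -0.12 to 0.28 for Col17a1. The cause was not tested. Signal near that of olfactory receptor genes limits what can be said of the 5 collagen genes not above it.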
